A study of Mus musculus with 43 samples.

Results

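Wild-type endothelial cells taken from mouse hearts 3 days after myocardial infarction (MI) were compared with wild-type endothelial cells of uninjured hearts, which the labels call homeostasis. The members are 5 of the 43 bulk RNA-seq libraries of the series, 2 at day 3 and 3 at homeostasis, and they were chosen by genotype, cell type and time as labelled. The series was made to study a stop codon in Vegfa named Q150X, and the 5 libraries compared here are all labelled wild type. RNA was extracted with Trizol and 2 µg went into each library, per the labels. Strain, age, sex, the MI procedure, the treatment of uninjured mice and the way endothelial cells were isolated are not stated by the labels. Neither do the labels say whether replicates are separate animals, so p-values measure the spread between these libraries, which may be technical.

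Endothelial cells line blood vessels and carry a shared set of surface proteins and transcription factors, on top of which arteries, capillaries, veins, lymphatics and the endocardium each have genes of their own. In the heart, capillary endothelium passes fatty acids from the blood to cardiomyocytes, and VEGF receptors, angiopoietin receptors and Notch are the best known signalling systems that keep vessels open or let them sprout. After an infarct, neutrophils and monocytes enter the injured muscle within days, and endothelial adhesion molecules and chemokines are known to help them do so.

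The 2 day 3 libraries held 36519161 and 36811353 counts, and the 3 homeostasis libraries held 35700895, 37012915 and 38761623. Sex-linked RNA separated the groups: Xist stood at 505 and 459 CPM at day 3 and at 0.784, 1.03 and 0.800 CPM at homeostasis, while Ddx3y, of the Y chromosome, stood at 0.246 and 0.217 CPM at day 3 and at 235, 249 and 201 CPM at homeostasis. Time after MI and this difference cannot be told apart in these libraries, for any gene. Genes of chromosomes X and Y were left out before library sizes were computed, which does not separate them for autosomal genes. Genes encoded by the mitochondrial genome took 17.98 and 17.58% of the counts at day 3, against 2.40, 2.04 and 1.87% at homeostasis. No 2 libraries were identical, and replicates of a group differed by more than counting noise.

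Levels are given as CPM, the depth-scaled read count after scaling by the trimmed mean of M values (TMM), with a value per library, and differences as log2 fold changes of day 3 over homeostasis ± standard error (SE). A gene rose or fell if its p from edgeR's quasi-likelihood test, adjusted by Benjamini and Hochberg over the 16552 autosomal and mitochondrial genes tested, was under 0.05. By this rule 3758 genes (22.7%) were higher at day 3 and 3156 (19.1%) were lower, 41.8% in all. The CPM values of the 2 groups did not overlap in 10520 genes (63.6%). These shares are the background for every count below that uses TMM.

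The balance of the calls depended on the scaling. With library size alone 2943 genes were higher and 4512 lower, and the median log2 fold change of all genes was -0.15, against 0.01 with TMM. A second scaling set each library by the geometric mean of its counts of 34 pan-endothelial genes, so that a value shows the change relative to endothelial RNA, and is called endothelial scaling here. Under it the median of all genes moved to 0.60, and 9346 genes (56.5%) were higher and 876 (5.29%) lower. The shares of 56.5% and 5.29% are the background for every count under endothelial scaling below. A list with a share of higher genes near 56.5% moved as genes at large did. All 3758 genes called higher with TMM were also called higher under endothelial scaling, and all 876 genes called lower under it were also called lower with TMM. This was largely built in, since endothelial scaling moves all values up by the fall of the pan-endothelial genes. A fall that held under endothelial scaling therefore exceeded that of the typical pan-endothelial gene.

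The defining markers of endothelium were present in every library. Cdh5, the cadherin of endothelial junctions, stood at 1351 and 1531 CPM at day 3 and at 2410.3, 2035 and 2185 CPM at homeostasis. Pecam1, which encodes the endothelial surface protein CD31, stood at 1646 and 1664 CPM at day 3 and at 2782, 2797 and 2664 CPM at homeostasis. Both were lower in each day 3 library than in any homeostasis library, with log2 fold changes of -0.62 ± 0.14 and -0.73 ± 0.13 (adjusted p = 0.0029 and 5.4e-04). Over the 34 pan-endothelial genes the summed level was 15302 and 15729 CPM at day 3, against 26441, 23780 and 23734 CPM at homeostasis. Of these 34 genes 22 fell and 1 rose, with a median log2 fold change of -0.62. CPM are shares of a library. In bulk RNA, fewer endothelial cells, less RNA per endothelial cell and more RNA from other sources cannot be told apart.

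RNA of leukocytes was high at day 3. All 15 tested pan-leukocyte genes rose, with a median of 4.25, and none of them was at 0 in any library. Their summed level was 2679 and 2583 CPM at day 3, against 164, 182 and 167 CPM at homeostasis. Ptprc, which encodes the common leukocyte antigen CD45, stood at 295 and 244 CPM at day 3 and at 27.3, 23.2 and 17.4 CPM at homeostasis (3.57 ± 0.18, adjusted p = 1.2e-07). All 26 monocyte and macrophage genes rose, with a median of 4.58 and a summed level of 7040 and 7870 CPM at day 3, against 211, 270 and 256 CPM at homeostasis. All 13 tested neutrophil genes rose as well, with a median of 7.70 and a summed level of 1251 and 1031 CPM at day 3, against 48.7, 45.5 and 49.1 CPM at homeostasis. Among them, S100a8 and Csf3r rose by 8.84 ± 0.20 and 7.70 ± 0.30. Every one of these lists stood at a higher summed level in both day 3 libraries than in any homeostasis library.

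Lymphocyte genes split by lineage. Of 19 tested, 12 rose and 3 fell, and the summed level was 103 and 102 CPM at day 3, against 93.0, 99.1 and 83.3 CPM at homeostasis. The T and NK cell genes Cd3g and Cd4 rose by 2.83 ± 0.32 and 2.31 ± 0.27. The genes that fell belong to B cells and their antibodies, Ms4a1 (-1.18 ± 0.20), Cd79a (-0.91 ± 0.18) and Igkc (-0.57 ± 0.21), and the call was lost under endothelial scaling for Cd79a (-0.31) and Igkc (0.02). Platelet genes Pf4 and Ppbp rose by 4.72 ± 0.18 and 3.87 ± 0.19, 2 of the 3 that rose among 9 platelet and megakaryocyte genes, and the 1 that fell, Gp1ba, lost its call without any of 4 libraries. Pf4 is also known from macrophages.

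Other cell types of the heart moved too. Of 16 fibroblast genes 12 rose (median 1.15), with a summed level of 5465 and 6337 CPM at day 3, against 2330, 2998 and 2795 CPM at homeostasis. Of 14 pericyte and smooth muscle genes 6 fell (median -0.53, but 0.07 under endothelial scaling), Acta2, the smooth muscle actin, at -1.96 ± 0.21. The others that fell were Myh11, Mylk, Tagln, Notch3 and Rgs5 (-1.02 ± 0.18). Pdgfrb (-0.09 ± 0.12), Kcnj8 (0.04 ± 0.38), Cspg4, Abcc9, Vtn, Higd1b, Cnn1 and Des were not called. Of 20 cardiomyocyte genes 17 rose and 1 fell (2 without day 3 replicate 1; median 0.96), with a summed level of 2731 and 2436 CPM at day 3, against 1695, 1580 and 1515 CPM at homeostasis. Genes of atrial cardiomyocytes went the other way: 9 of 10 fell, with a median of -3.61 and a summed level of 38.8 and 12.2 CPM at day 3, against 252, 299 and 331 CPM at homeostasis. Epicardial and mesothelial genes held 5 that rose and 2 that fell of 11 (median 4.02), and without homeostasis replicate 1, which held more of this RNA than the other homeostasis libraries, 9 rose and the median was 6.62. The 4 tested hemoglobin genes did not pass with edgeR (median -1.67), 1 was lower with DESeq2, and all 4 were lower without day 3 replicate 1. Among the markers of cells other than endothelium, Klrb1c, Siglech, Upk1b, Krt8, Lrrn4 and Muc16 were at 0 in 1 homeostasis library each. What part these cells had in the results below was not tested. Values under endothelial scaling, where given, are relative to pan-endothelial RNA.

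**Figure D1:**
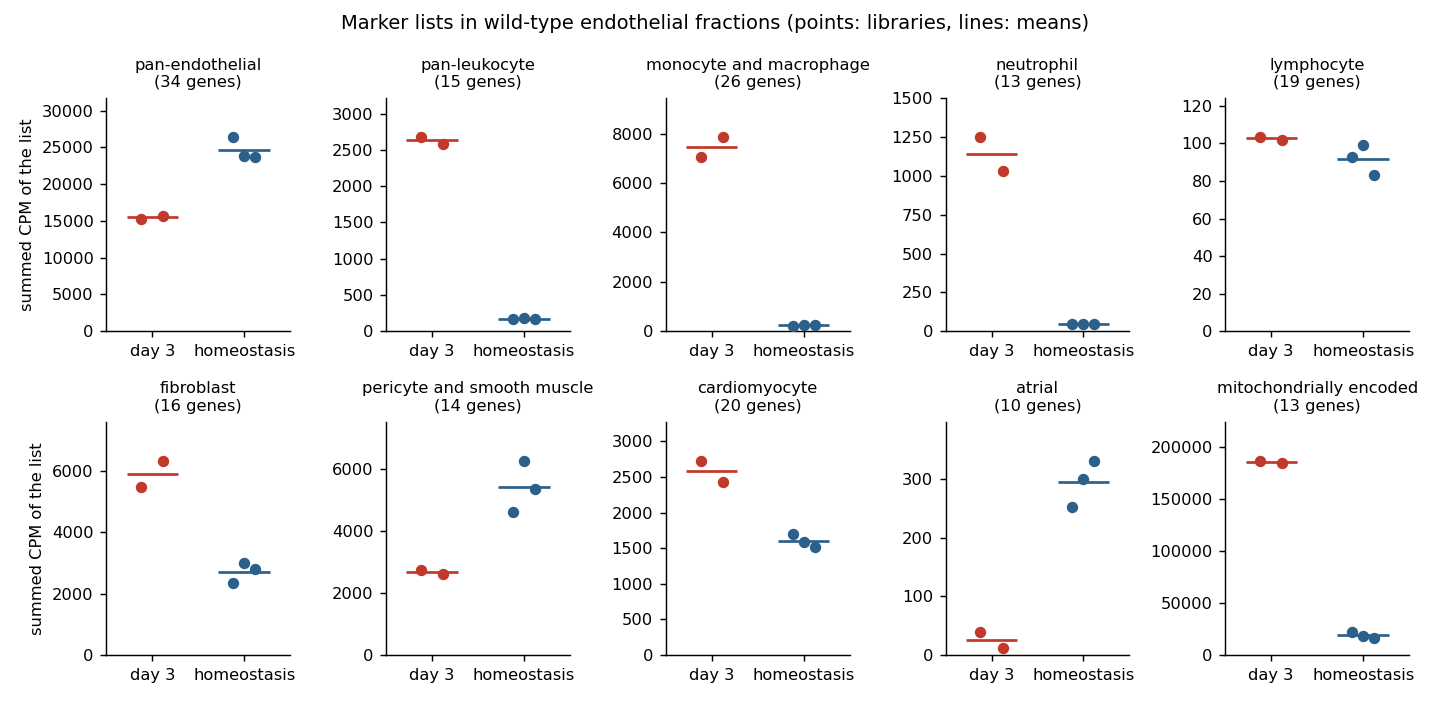
Summed CPM of 10 marker lists in each library, day 3 on the left (red) and homeostasis on the right (blue), with lines at the group means and axes that start at 0. The pan-endothelial sum, the joint sum of pericyte and smooth muscle genes and the atrial sum were lower at day 3. Leukocyte, fibroblast, cardiomyocyte and mitochondrially encoded sums were higher.

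To tell endothelial genes from those of other cells, genes enriched in the endothelial fraction were picked with uninjured libraries of the Q150X allele, which are not part of the comparison. They had at least 5 CPM there, at least 4 times the level of uninjured cardiomyocytes and 2 times that of uninjured whole hearts, and were on no list of another cell type. Of these 3467 genes, all of which were tested, 1568 (45.2%) fell and 519 (15%) rose, with a median of -0.30. Of the other 13085 genes, 1588 (12.1%) fell and 3239 (24.8%) rose, with a median of 0.09. Part of this contrast is built in. The rule picks genes by their level in uninjured fractions, so genes low there could not enter. A smaller share of endothelial RNA also lowers the picked genes together. Under endothelial scaling 513 of the 1568 genes were still lower, 1011 were not called and 44 were called higher. The 519 genes that rose were also called higher under that scaling, which its upward shift of all values largely builds in. The picked set still holds some leukocyte genes, such as Il1b and Plek, which the uninjured fraction also held. That fraction held pericyte and smooth muscle RNA too. Rgs5 stood at 3453 CPM in uninjured Q150X endothelial cells, 53.1 CPM in cardiomyocytes and 590 CPM in whole hearts, and Myh11 at 683, 7.60 and 59.4 CPM. Both were left out as list members, but genes of such cells that are on no list could enter the set. Their part in its falls was not tested.

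**Figure D2:**
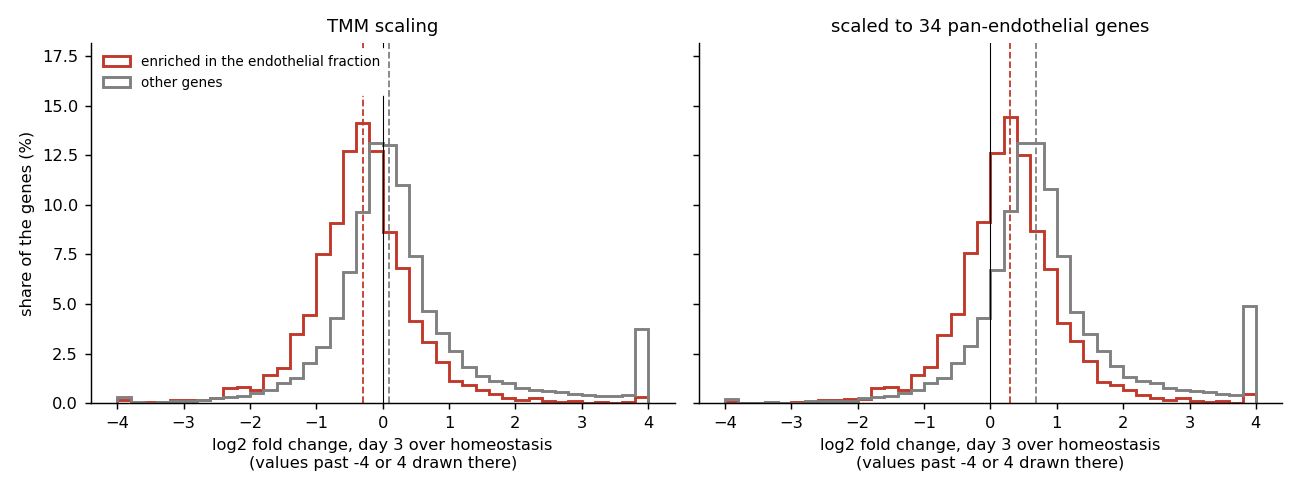
Share of genes by log2 fold change of day 3 over homeostasis, for genes enriched in the endothelial fraction (red) and the other genes (grey), with TMM on the left and endothelial scaling on the right. Dashed lines are medians, at -0.30 for enriched and 0.09 for the other genes with TMM, and the enriched median is 0.29 under endothelial scaling.

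Under endothelial scaling 7 of the 34 pan-endothelial genes were lower and 10 higher (median -0.03). The median near 0 was built in, since these genes set that scaling. Where other lists share genes with the 34, this holds for them in part. Sox7, Sox17 and Sox18, a trio of related factors of vessel development, fell, with log2 fold changes of -1.27 ± 0.12, -0.84 ± 0.12 and -0.86 ± 0.14, and only Sox7 of the trio kept its call relative to endothelial RNA (-0.67, adjusted p = 2.2e-04). Emcn, the surface sialoprotein endomucin, stood at 400.3 and 356 CPM at day 3 and at 936, 901 and 861 CPM at homeostasis (-1.25 ± 0.12). Clec14a and Myct1, further endothelial surface and membrane proteins, fell, with log2 fold changes of -1.12 ± 0.11 and -1.19 ± 0.12. At the other end, Egfl7, a protein that endothelial cells secrete into their matrix, was the 1 pan-endothelial gene that rose, with 292 and 342 CPM at day 3 and 208, 232 and 271 CPM at homeostasis (0.42 ± 0.13, adjusted p = 0.021). Its call was lost without day 3 replicate 2, without homeostasis replicate 2 and with library size alone. Nos3, the endothelial nitric oxide synthase, overlapped between the groups at 219 and 199 CPM at day 3 and 236, 193 and 226 CPM at homeostasis (-0.06 ± 0.12) and was called higher under endothelial scaling (0.54, adjusted p = 0.0013). Cldn5, the main claudin of tight junctions in endothelium, stood at 78.0 and 183 CPM at day 3 and at 227, 287 and 344 CPM at homeostasis. The day 3 libraries differed from each other by more than 2 times, and the difference between groups did not pass (-1.13 ± 0.45, adjusted p = 0.13), though it did without either day 3 library, at -0.64 without replicate 1 and -1.87 without replicate 2.

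Of 28 endothelial transcription factors 18 fell and 1 rose with a median of -0.71, and 7 were lower and 7 higher under endothelial scaling, where the median was -0.11. Foxf1, a forkhead factor of endothelium and mesenchyme, stood at 2.12 and 4.57 CPM at day 3 and at 13.5, 15.6 and 15.6 CPM at homeostasis. It was lower in both day 3 libraries than in any homeostasis library (-2.16 ± 0.28, adjusted p = 1.1e-04; -1.57 under endothelial scaling). Ets1, a founding member of the ETS factors that drive endothelial genes, had 365 and 382 CPM at day 3 and 925, 909 and 831 CPM at homeostasis (-1.25 ± 0.12). Tal1 and Mef2c, factors of early blood and vessel development, fell, with log2 fold changes of -1.21 ± 0.11 and -1.19 ± 0.12. These 4 factors kept their calls under endothelial scaling. The ETS factors Erg (-0.63 ± 0.11) and Fli1 (-0.76 ± 0.11) fell with TMM but stood at -0.03 and -0.17 under endothelial scaling, where neither was called. Lyl1, a relative of Tal1 that leukocytes also express, was the 1 that rose (0.71 ± 0.15). Klf2 and Klf4, factors that respond to blood flow, differed in their values: Klf4 fell by 0.78 ± 0.14, while Klf2 overlapped at 804 and 595 CPM at day 3 and 876, 881 and 799 CPM at homeostasis (-0.28 ± 0.14, adjusted p = 0.13). Klf2 was called lower without day 3 replicate 1 (-0.52) and with library size alone (-0.44).

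Genes of the VEGF system held the receptor Kdr and 5 others that fell and 4 that rose among 14, and 3 were lower and 7 higher under endothelial scaling. Their median was -0.09 with TMM and 0.51 under endothelial scaling, and it was -0.15 without day 3 replicate 1, -0.30 without day 3 replicate 2 and -0.03 without homeostasis replicate 1. Kdr, the main signalling receptor for VEGF-A, stood at 996 and 1015 CPM at day 3 and at 2830.1, 2502 and 2162 CPM at homeostasis. The lowest homeostasis library had more than 2 times the level of either day 3 library (-1.31 ± 0.15, adjusted p = 1.3e-05), and the fall held under endothelial scaling (-0.71, adjusted p = 7.4e-04). Flt1, the high-affinity receptor that also acts as a decoy, had 1469.7 and 1468 CPM at day 3 and 2241, 1915 and 1767 CPM at homeostasis (-0.43 ± 0.14, adjusted p = 0.026). Its call was lost without either day 3 library and without homeostasis replicate 2, and its direction turned under endothelial scaling (0.17). Flt4, the receptor for VEGF-C, overlapped between groups (-0.08 ± 0.13), and Nrp1, a co-receptor, fell by 0.84 ± 0.14. The ligand Vegfc fell to 37.8 and 32.9 CPM at day 3, against 139, 153 and 155 CPM at homeostasis (-2.08 ± 0.12, adjusted p = 2.1e-08). Rcan1, a calcineurin inhibitor and known target of VEGF signalling, fell by a like amount, with 117 and 117 CPM at day 3 and 449, 487 and 514 CPM at homeostasis (-2.04 ± 0.12). Vegfa itself, the gene that the series edits in other mice, stood at 149 and 142 CPM at day 3 and at 107, 101 and 106 CPM at homeostasis and rose by 0.48 ± 0.10 (adjusted p = 0.0021). Pgf, which encodes placental growth factor, a ligand of Flt1, rose by 0.89 ± 0.14. Sh2d2a, an adaptor that also acts in T cells, rose by 2.95 ± 0.29.

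Of 9 genes of the angiopoietin and Tie system 4 fell and 2 rose (median -0.65, and -0.05 under endothelial scaling). Tek, which encodes the angiopoietin receptor Tie2, had 479 and 459.7 CPM at day 3 and 975, 919 and 819 CPM at homeostasis (-0.95 ± 0.13, adjusted p = 5.9e-05), and Tie1 fell by 0.65 ± 0.12. Only Tek of these 9 was still lower under endothelial scaling (-0.35). Angpt2, the ligand that can oppose Tie2 signalling and is known to be released by activated endothelium, stood at 51.0 and 50.6 CPM at day 3 and at 46.0, 49.3 and 42.8 CPM at homeostasis. Its groups did not overlap but the difference was small (0.14 ± 0.11, adjusted p = 0.32). Dok2, a docking protein downstream of Tie2 that is abundant in myeloid cells, rose by 5.003 ± 0.26.

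Of 16 arterial genes tested 14 fell and 1 rose, the median was -1.04, and 10 were still lower under endothelial scaling, where the median was -0.44. Gja5, the connexin 40 gene of arteries, stood at 41.3 and 28.3 CPM at day 3 and at 101, 114 and 134 CPM at homeostasis (-1.74 ± 0.18, adjusted p = 3.2e-05). Efnb2, the ephrin that marks arteries, had 174 and 184 CPM at day 3 and 462, 403 and 366 CPM at homeostasis (-1.20 ± 0.13). Stmn2, Fbln5 and Mecom fell, with log2 fold changes of -1.62 ± 0.15, -1.44 ± 0.15 and -1.28 ± 0.13. In each of these genes both day 3 libraries lay below all homeostasis libraries, and the rule for naming genes asked for this in most of them. Cxcr4, a chemokine receptor of arterial and tip cells that leukocytes express strongly, rose to 103 and 76.7 CPM at day 3, against 37.0, 36.8 and 37.1 CPM at homeostasis (1.28 ± 0.12). Smooth muscle of the artery wall is a different cell type, and its marker Myh11 stood at 196 and 71.5 CPM at day 3 and 687, 573 and 544 CPM at homeostasis.

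Of 16 genes of the Notch pathway, which sets arterial fate, 7 fell and 3 rose with a median of -0.32, but under endothelial scaling 2 were lower and 8 higher with a median of 0.28. The ligands Dll4 (176 and 202 CPM at day 3, 333, 356 and 361 CPM at homeostasis), Dll1 and Jag1 fell, with log2 fold changes of -0.89 ± 0.12, -1.21 ± 0.13 and -0.84 ± 0.11. The receptor Notch3, known from pericytes and smooth muscle, fell as well. The targets Hey1, Hey2 and Hes1 fell, with log2 fold changes of -0.74 ± 0.10, -0.95 ± 0.22 and -0.44 ± 0.12. Notch1 and Notch4, the receptors best known from endothelium, were not called (-0.36 ± 0.14 and 0.06 ± 0.11), nor were Jag2, Mfng, Heyl and Nrarp. Notch2 rose to 120.4 and 117 CPM at day 3, against 42.6, 32.3 and 33.1 CPM at homeostasis (1.72 ± 0.13), and the transcriptional partner Rbpj and the receptor-modifying enzyme Lfng rose by 1.11 ± 0.10 and 1.14 ± 0.12. The 2 genes still lower under endothelial scaling were Dll1 and Dll4. With library size alone 11 fell.

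Of 16 capillary genes of fatty acid uptake 10 fell and 2 rose with a median of -0.73, but under endothelial scaling 6 were lower and 4 higher with a median of -0.14. Fabp4, the fatty acid binding protein of capillary endothelium, stood at 2103 and 2341 CPM at day 3 and at 5464, 6850.0 and 6339 CPM at homeostasis (-1.48 ± 0.16, adjusted p = 7.2e-06). Cd36, the fatty acid translocase, had 2216 and 2291 CPM at day 3 and 5501, 6246 and 5069 CPM at homeostasis (-1.31 ± 0.15, adjusted p = 1.5e-05). Both groups were far apart in each gene, and both falls held under endothelial scaling (-0.89 and -0.72). Meox2 and Tcf15, the factors known to drive this uptake programme, fell, with log2 fold changes of -1.01 ± 0.12 and -1.05 ± 0.20, and the glycerol channel Aqp7 at -1.56 ± 0.14. Btnl9 and Car4, markers of heart capillaries, fell, with log2 fold changes of -1.45 ± 0.14 and -1.40 ± 0.13. Gpihbp1, which carries lipoprotein lipase across the capillary wall, had 235 and 249 CPM at day 3 and 259, 340.5 and 369.5 CPM at homeostasis (-0.41 ± 0.15, adjusted p = 0.037). The call was lost without any of 4 libraries, and the direction turned under endothelial scaling (0.18). Lpl, the lipase itself, which cardiomyocytes and macrophages make, rose by 0.77 ± 0.14, and the fatty acid transporter Slc27a4 by 0.96 ± 0.16.

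Venous genes showed no common direction: 4 of 12 fell and 3 rose, with a median of -0.07 that was 0.53 under endothelial scaling (2 lower and 7 higher) and 0.10 without day 3 replicate 2, where 2 fell. Ackr1, the chemokine receptor that marks venules, rose to 5.48 and 4.93 CPM at day 3, against 1.45, 1.69 and 1.74 CPM at homeostasis (1.67 ± 0.25, adjusted p = 1.3e-04). Lrg1, a secreted glycoprotein of venules and neutrophils, rose to 35.7 and 35.6 CPM at day 3, against 5.75, 4.65 and 5.08 CPM at homeostasis (2.79 ± 0.14, adjusted p = 6.8e-09). Vwf, the clotting glycoprotein, overlapped at 1133 and 858 CPM at day 3 and 1284, 864 and 1072 CPM at homeostasis (-0.11 ± 0.18). Its direction turned under endothelial scaling (0.50, adjusted p = 0.021). Nr2f2, the factor of venous identity, fell by 0.42 ± 0.11.

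Vcam1 and Icam1, the 2 adhesion molecules of the vessel wall best known for holding leukocytes, were lower at day 3, while leukocyte RNA was high. Vcam1, which binds monocytes and lymphocytes, stood at 381 and 281 CPM at day 3 and at 1075, 1005 and 841 CPM at homeostasis (-1.56 ± 0.16, adjusted p = 7.8e-06). Icam1, the ligand of leukocyte integrins, had 343 and 368 CPM at day 3 and 785, 946 and 993 CPM at homeostasis (-1.35 ± 0.14, adjusted p = 5.0e-06). For both genes every day 3 library was below every homeostasis library, and both falls held under endothelial scaling (-0.96 and -0.76). E-selectin, encoded by Sele, had 261 and 258 CPM at day 3 and 457, 433 and 380.4 CPM at homeostasis (-0.71 ± 0.12), and P-selectin, encoded by Selp, overlapped at 166 and 133 CPM at day 3 and 170.1, 142 and 149 CPM at homeostasis (-0.04 ± 0.13). Relative to endothelial RNA Sele was not called (-0.11) and Selp turned to higher (0.56, adjusted p = 0.0013). Of 14 adhesion genes 9 fell and 2 rose (median -0.62), and 3 were lower and 5 higher under endothelial scaling (median -0.03). The 2 that rose were Ackr1 and Alcam (3.15 ± 0.22), an adhesion protein also found on macrophages.

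Junction genes fell in 16 of 22 cases with 1 higher and a median of -0.65, but under endothelial scaling 7 were lower and 4 higher with a median of -0.06. The 1 that rose was Cgn (1.32 ± 0.49), a call that was lost without any of 4 libraries. Gja1, the connexin 43 gene, fell to 240.0 and 283 CPM at day 3, against 977, 997 and 889 CPM at homeostasis (-1.87 ± 0.13, adjusted p = 1.8e-07). The tight junction genes Ocln, which encodes occludin, Tjp1, which encodes ZO-1, and Afdn, which encodes afadin, fell, with log2 fold changes of -2.35 ± 0.50, -1.13 ± 0.14 and -1.22 ± 0.14. All 4 were still lower under endothelial scaling. Ctnnb1, which encodes beta-catenin, and Jup fell with TMM, at -0.69 ± 0.12 and -0.51 ± 0.12 and stood at -0.10 and 0.09 under endothelial scaling. Of 18 genes of the response to blood flow 10 fell and 1 rose (median -0.58), but 4 were lower and 7 higher under endothelial scaling (median 0.02). The caveola genes Cav1, Cavin1 and Cavin2 fell, with log2 fold changes of -0.75 ± 0.13, -0.82 ± 0.13 and -1.12 ± 0.13.

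**Figure D3:**
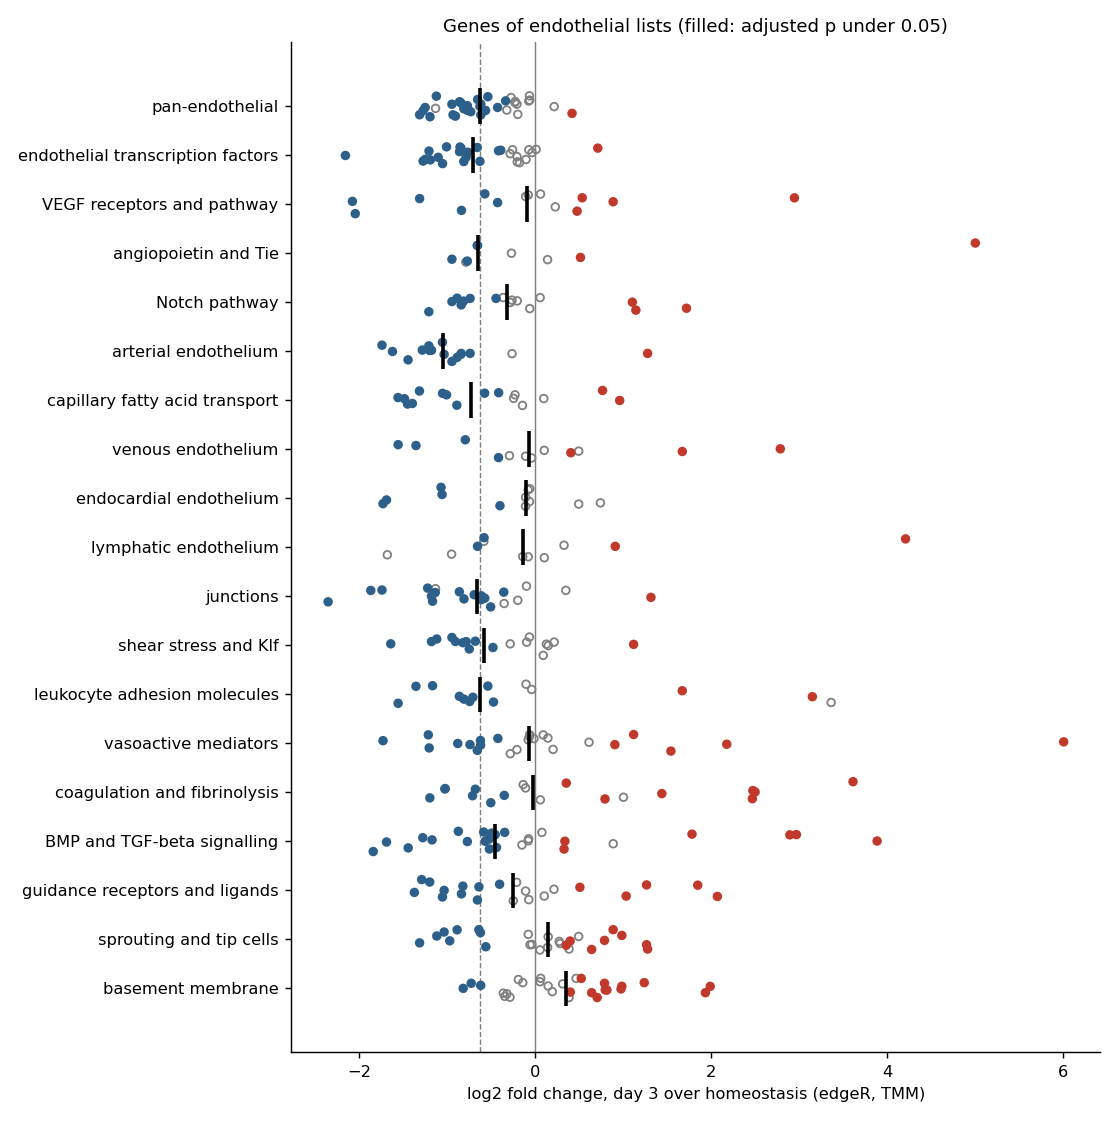
Log2 fold change of day 3 over homeostasis for each tested gene of 19 endothelial lists, red for genes that rose, blue for genes that fell and open for those not called. Black bars are list medians, the solid line is 0 and the dashed line is the pan-endothelial median of -0.62. Among the 19 lists drawn, which leave out the mesenchymal genes (median 0.94), the arterial median (-1.04) lies furthest to the left and the basement membrane median (0.35) furthest to the right.

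Endocardial and lymphatic lists were small. Of 12 endocardial genes 5 fell, among them Bmp6, a BMP ligand, at -1.69 ± 0.14, and Npr3, the natriuretic peptide clearance receptor, at -1.73 ± 0.32. Their median was -0.11, but -0.55 without day 3 replicate 1 and 0.50 under endothelial scaling. A rise was called in 1 of the 12 with DESeq2 and in 2 without day 3 replicate 2. Of 11 lymphatic genes 2 fell and 2 rose (median -0.14, but 0.46 under endothelial scaling). The number that fell was 5 without day 3 replicate 1 and 1 without day 3 replicate 2, homeostasis replicate 1 or homeostasis replicate 2. Pdpn, which encodes podoplanin and which fibroblasts and macrophages also express, rose to 108 and 144 CPM at day 3, against 6.65, 7.85 and 5.96 CPM at homeostasis (4.21 ± 0.16). Prox1, the factor of lymphatic identity, had 23.4 and 9.36 CPM at day 3 and 73.1, 42.1 and 42.3 CPM at homeostasis, and the difference did not pass (-1.68 ± 0.57, adjusted p = 0.10).

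Vasoactive genes held 9 that fell and 5 that rose of 24 (median -0.07), but 3 were lower and 13 higher under endothelial scaling (median 0.53). Edn1, which encodes the constrictor endothelin, had 55.5 and 40.8 CPM at day 3 and 94.8, 82.8 and 88.1 CPM at homeostasis (-0.88 ± 0.14), and both subunits of the nitric oxide receptor, Gucy1a1 and Gucy1b1, which are known mainly from smooth muscle and pericytes, fell, with log2 fold changes of -1.20 ± 0.14 and -1.21 ± 0.15. The prostaglandin synthase Ptgs2 rose to 1476 and 1339 CPM at day 3, against 641, 421 and 388 CPM at homeostasis (1.54 ± 0.20), and prostacyclin synthase, encoded by Ptgis, rose by 1.12 ± 0.10. Arg2, an arginase, rose by 6.01 ± 0.22. Nt5e, which makes adenosine on the cell surface, rose by 2.18 ± 0.13.

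Among genes of coagulation 7 of 18 fell and 7 rose (median -0.02), but 2 were lower and 11 higher under endothelial scaling (median 0.58). Among those that fell were genes that act against clotting or dissolve clots: Thbd, which encodes thrombomodulin, at -0.68 ± 0.12, Procr, the protein C receptor, at -1.02 ± 0.12, Tfpi, the inhibitor of tissue factor, at -0.35 ± 0.10, and Plat, the tissue plasminogen activator, at -0.71 ± 0.12, besides F2r, Tfpi2 and Pros1. Of these 7, F2r, the thrombin receptor, and Procr were still lower under endothelial scaling. F3, which encodes tissue factor, rose to 11.9 and 16.4 CPM at day 3, against 2.15, 2.42 and 3.04 CPM at homeostasis (2.47 ± 0.22, adjusted p = 1.4e-06). Thbs1, the matricellular inhibitor of angiogenesis thrombospondin, rose to 2814 and 3640.2 CPM at day 3, against 271, 261 and 259.9 CPM at homeostasis (3.61 ± 0.14, adjusted p = 4.5e-10). In F3 and Thbs1 no day 3 library came near the homeostasis range. Macrophages, platelets and fibroblasts are known to express some of them, and the part of those cells was not tested.

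BMP and TGF-beta genes fell in 16 of 27 cases and rose in 6 (median -0.45), but 5 were lower and 10 higher under endothelial scaling (median 0.14). The BMP target Id1 fell to 231 and 297 CPM at day 3, against 617, 754 and 783 CPM at homeostasis (-1.44 ± 0.15), while Id2 rose by 0.34 ± 0.10. Tgfb2 and Tgfb3 fell, with log2 fold changes of -1.84 ± 0.15 and -1.28 ± 0.13, and Tgfb1 overlapped (0.08 ± 0.10). The endothelial receptors Eng and Acvrl1 fell, with log2 fold changes of -0.77 ± 0.14 and -0.52 ± 0.11 and were not called under endothelial scaling. The activin subunits Inhba and Inhbb rose by 3.89 ± 0.16 and 1.78 ± 0.14, Inhba to 117 and 99.97 CPM at day 3, against 8.49, 7.79 and 5.71 CPM at homeostasis. Tgfbi, a secreted target of TGF-beta that macrophages make in quantity, rose by 2.90 ± 0.14.

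Sprouting genes held 8 that rose and 8 that fell of 26 (median 0.14, but -0.02 with library size alone and 0.74 under endothelial scaling). Under endothelial scaling 16 were higher and 3 lower. Those that fell with TMM were Kdr, Dll4, Unc5b, Esm1, Aplnr, Kcne3, Adm and Trp53i11. Esm1, a marker of tip cells, had 13.9 and 10.6 CPM at day 3 and 17.1, 20.2 and 19.96 CPM at homeostasis (-0.64 ± 0.16, adjusted p = 0.0064), and the call was lost without day 3 replicate 2. Those that rose were Col4a1, Col4a2, Lamc1, Pgf, Plaur, Robo1, Cxcr4, which tip cells and leukocytes express (1.28 ± 0.12), and Pdgfb, the ligand that recruits pericytes (0.40 ± 0.11). Aplnr, the apelin receptor, fell by 0.97 ± 0.26, a call lost without homeostasis replicate 1, and apelin itself lies on chromosome X and was not tested. Guidance genes fell in 10 of 21 cases and rose in 5 (median -0.25), but 5 were lower and 10 higher under endothelial scaling (median 0.34). Sema6a and Epha4 fell, with log2 fold changes of -1.29 ± 0.14 and -1.37 ± 0.15, and Sema3f and Slit2 rose by 1.03 ± 0.11 and 2.07 ± 0.24.

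Of 28 basement membrane genes 12 rose and 3 fell (5 fell without day 3 replicate 1), with a median of 0.35. Under endothelial scaling 20 were higher with a median of 0.95, and with library size alone 11 were higher and 6 lower with a median of 0.19. Col4a1 and Col4a2, the paired collagen IV chains of vessel basement membranes, were both higher at day 3. Col4a1 had 2422 and 3398 CPM at day 3 and 1765, 1579 and 1709 CPM at homeostasis. Col4a2 had 1291 and 1832 CPM at day 3 and 826, 725 and 815 CPM at homeostasis. They rose by 0.79 ± 0.15 and 0.99 ± 0.15 (adjusted p = 0.0011 and 2.0e-04), with day 3 replicate 2 the higher of its pair in both. Col15a1, another collagen of the vessel wall, rose to 367 and 648 CPM at day 3, against 119, 115 and 164 CPM at homeostasis (1.94 ± 0.27). The laminin chain Lamc1 rose by 0.64 ± 0.13, Lamb2 fell by 0.73 ± 0.13, and Lama4 and Lama5, the endothelial alpha chains, were not called (-0.34 ± 0.13 and -0.32 ± 0.16). Loxl2, P4ha1, P4ha2 and Plod2, which encode enzymes that modify collagen, rose by 1.99 ± 0.20, 0.82 ± 0.18, 0.98 ± 0.10 and 0.52 ± 0.12, while Lox and Plod1, of the same kind, were not called (-0.36 ± 0.27 and 0.06 ± 0.11). The fibronectin receptor subunit Itga5 rose by 0.80 ± 0.11. Genes of fibroblasts rose in the same libraries. The fibrillar collagen gene Col1a1 had 296 and 677 CPM at day 3 and 26.5, 32.1 and 38.0 CPM at homeostasis, again with day 3 replicate 2 the higher of its pair, and Col3a1 rose by 3.81 ± 0.30. The part of fibroblast RNA in the basement membrane values was not tested.

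Mesenchymal genes, on which endothelial cells and fibroblasts overlap, held 10 that rose and 4 that fell of 18 (median 0.94), and 13 that were higher and 2 lower under endothelial scaling (median 1.54). Zeb2, Cdh2 and Vim rose by 1.39 ± 0.11, 1.49 ± 0.20 and 0.64 ± 0.14, and Snai1 and Snai2, transcription factors known from the endothelial-to-mesenchymal transition, fell, with log2 fold changes of -0.67 ± 0.15 and -0.85 ± 0.15. Acta2 and Tagln, contractile genes of that transition and of smooth muscle, fell, with log2 fold changes of -1.96 ± 0.21 and -1.54 ± 0.35. Under endothelial scaling Acta2 and Tagln were still lower, and Snai1 (-0.08) and Snai2 (-0.25) were not called. Zeb2 is also known from macrophages.

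**Figure D4:**
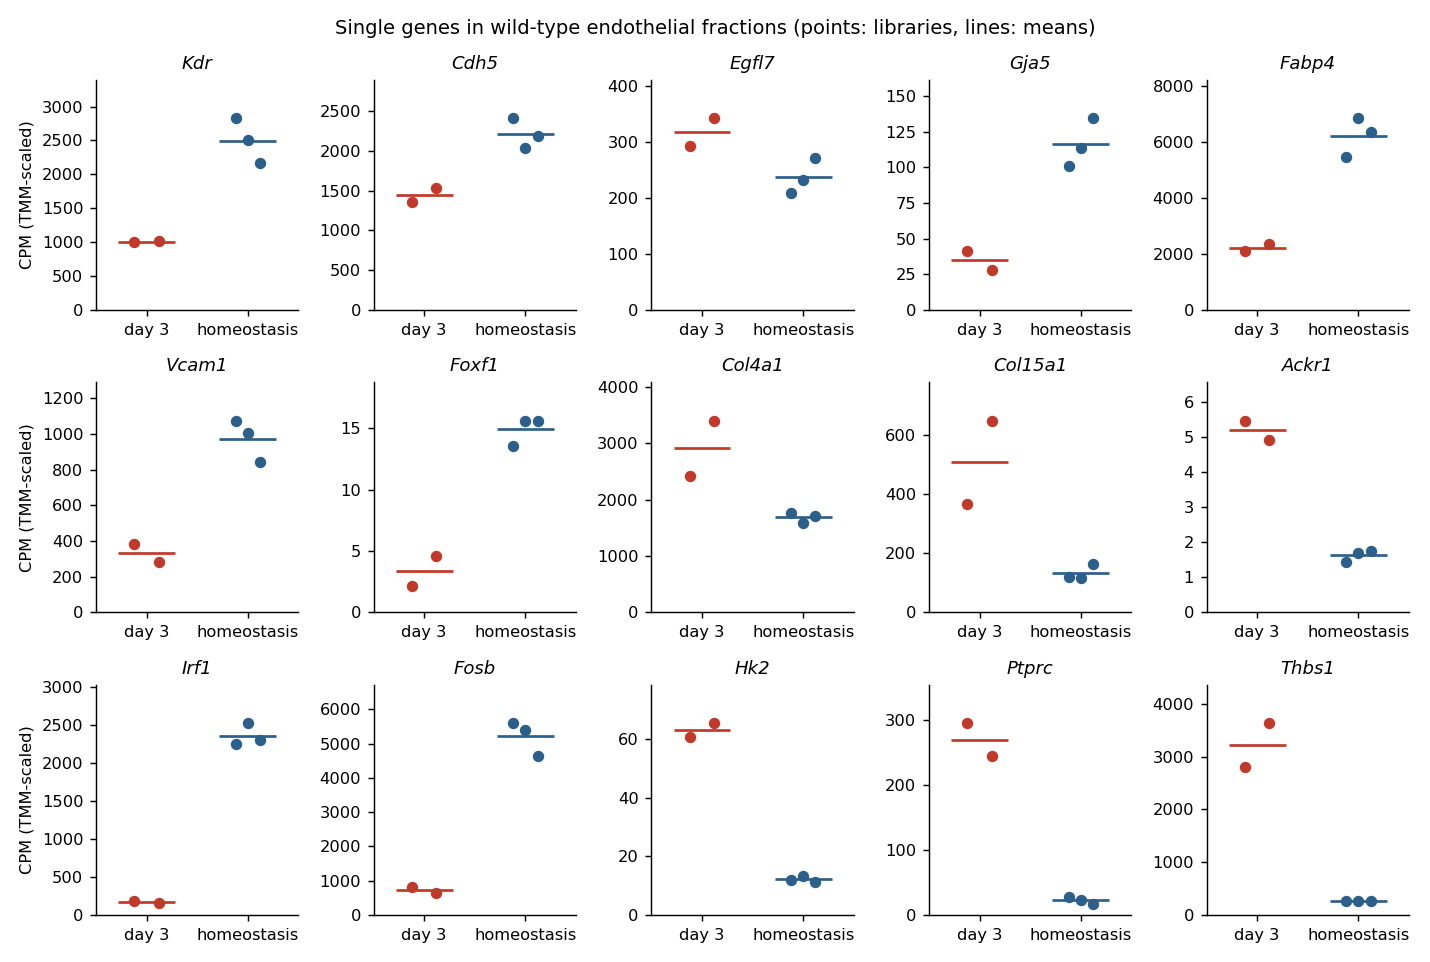
CPM of 15 single genes in each library, day 3 on the left (red) and homeostasis on the right (blue), with lines at the group means and axes that start at 0. The groups do not overlap in any of the 15 genes shown. This was so in 63.6% of all genes tested, and lack of overlap was part of the rule for naming genes. Kdr, Cdh5, Gja5, Fabp4, Vcam1, Foxf1, Irf1 and Fosb are lower at day 3, and Egfl7, Col4a1, Col15a1, Ackr1, Hk2, Ptprc and Thbs1 are higher.

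Interferon response genes fell in 16 of 33 cases and rose in 4 (median -0.42), but 8 were lower and 9 higher under endothelial scaling (median 0.18). Irf1, a transcription factor induced by interferon-gamma, on chromosome 11, had the largest fall among them after Iigp1. It stood at 186 and 151 CPM at day 3 and at 2249.7, 2531 and 2308 CPM at homeostasis, a level in each homeostasis library far above both day 3 libraries (-3.81 ± 0.16, adjusted p = 9.4e-10; -3.21 under endothelial scaling). Iigp1, an interferon-gamma GTPase, had 101 and 50.5 CPM at day 3 and 1076, 1307 and 933 CPM at homeostasis (-3.87 ± 0.36, adjusted p = 3.5e-04). The chemokine Cxcl10, which attracts T cells, had 58.7 and 49.97 CPM at day 3 and 217, 342 and 287 CPM at homeostasis (-2.37 ± 0.19). Its relative Cxcl9 fell by 2.47 ± 0.38, and Ifit1, Mx2, Igtp, Gbp2, Isg15 and Gbp5 fell, with log2 fold changes of -2.33, -2.28, -1.58, -1.49, -1.45 and -1.17. Reads of the Gbp, Ifit and Oas families can be shared between near copies, so single members are uncertain. Those that rose were Mx1 (3.63 ± 0.37), Oas3 (5.50 ± 0.61), Zbp1 (2.49 ± 0.36) and Oas1a (1.005 ± 0.27). Without day 3 replicate 2 the number that rose was 9, and without homeostasis replicate 1 it was 2. The median was -0.90 without day 3 replicate 1 and -0.16 without day 3 replicate 2.

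Promoters of the fallen genes were searched for the interferon-stimulated response element (ISRE, GAAA, any 2 bases, GAAA) and the gamma-activated site (GAS, TTC, any 3 bases, GAA), on both strands of the 250 bases before the start of each gene in RefSeq (GRCm38.p6). Of the 16 genes that fell 13 were matched by symbol. An ISRE was present in 8 of the 13 and in 3.46% of all 27025 promoters, and a GAS in 4 of the 13 and in 8.13% of all promoters. The ISRE was also present in both of the 2 matched genes that rose and in 14 of the 25 matched genes of the list. The promoters of Irf1 (chr11:53769764-53770013, plus strand), Cxcl10 (chr5:92348890-92349139, minus strand) and Gbp5 (chr3:142496684-142496933, plus strand) are shown 5′ to 3′ because these genes fell and their windows hold such matches, which are in capitals. A match is a description of letters and not of binding.
Irf1: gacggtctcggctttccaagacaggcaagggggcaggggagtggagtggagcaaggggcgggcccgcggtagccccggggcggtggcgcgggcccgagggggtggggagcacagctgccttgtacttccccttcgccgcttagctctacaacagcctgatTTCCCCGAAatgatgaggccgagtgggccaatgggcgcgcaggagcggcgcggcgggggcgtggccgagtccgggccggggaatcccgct
Cxcl10: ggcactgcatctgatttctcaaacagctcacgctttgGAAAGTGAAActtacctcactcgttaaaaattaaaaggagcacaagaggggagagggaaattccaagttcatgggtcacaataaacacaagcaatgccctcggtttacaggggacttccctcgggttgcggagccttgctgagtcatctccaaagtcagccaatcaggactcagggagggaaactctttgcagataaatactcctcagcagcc
Gbp5: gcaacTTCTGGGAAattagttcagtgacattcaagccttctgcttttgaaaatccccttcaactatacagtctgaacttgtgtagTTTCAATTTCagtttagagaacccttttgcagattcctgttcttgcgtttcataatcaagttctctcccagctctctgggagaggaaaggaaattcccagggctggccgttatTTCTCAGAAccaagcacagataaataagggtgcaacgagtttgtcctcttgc
Irf1 holds 1 GAS, Cxcl10 holds 1 ISRE and Gbp5 holds 1 ISRE and 2 GAS.

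Antigen presentation split by class. Of 12 class I genes 2 fell, Tap1 (-0.67 ± 0.16) and H2-Q4 (-1.11 ± 0.14), and Nlrc5, the class I transactivator, rose (1.25 ± 0.19), and the number that fell was 1 without day 3 replicate 2, 5 without day 3 replicate 1 and 4 without homeostasis replicate 1. Their median was -0.18, but 0.42 under endothelial scaling. All 7 class II genes rose, with a median of 2.13. Cd74, the invariant chain, stood at 275 and 369 CPM at day 3 and at 63.3, 73.4 and 66.3 CPM at homeostasis (2.25 ± 0.13), and H2-Ab1 rose by 2.13 ± 0.14. Macrophages and dendritic cells are the main cells known to express class II, and of 8 tested dendritic cell genes 5 rose. The 1 that fell, Zbtb46, was near the threshold (adjusted p = 0.0499), lost its call without day 3 replicate 2 or without any 1 of the 3 homeostasis libraries, and was higher under endothelial scaling (0.31).

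Hypoxia and glycolysis genes rose in 20 of 30 cases and fell in 6, with a median of 0.80, and under endothelial scaling 22 were higher and 2 lower with a median of 1.40. Slc16a3, the lactate exporter MCT4, rose to 147 and 139.9 CPM at day 3, against 17.2, 19.4 and 21.7 CPM at homeostasis (2.88 ± 0.12, adjusted p = 6.7e-10). Hk2, the inducible hexokinase that starts glycolysis, had 60.7 and 65.5 CPM at day 3 and 12.1, 13.1 and 11.1 CPM at homeostasis (2.38 ± 0.12, adjusted p = 4.5e-09). The groups were well apart in both. Slc2a1, the glucose transporter GLUT1, rose by 1.70 ± 0.11, Pkm by 1.67 ± 0.11 and Hif1a, the oxygen-sensitive subunit of the hypoxia factor, by 1.42 ± 0.12. Epas1, the related HIF-2 subunit that endothelium expresses strongly, fell by 0.63 ± 0.14 and was level under endothelial scaling (-0.03). Pfkfb3, the glycolytic activator known from sprouting endothelium, fell to 109.8 and 139.6 CPM at day 3, against 313, 313 and 264 CPM at homeostasis (-1.25 ± 0.14, adjusted p = 9.9e-06), also under endothelial scaling (-0.66). Its relative Pfkfb4 rose by 1.97 ± 0.23. Activated macrophages and neutrophils are known to be glycolytic, and their part in these values was not tested.

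The core of the hypoxia response element (ACGTG, both strands) was present in 11 of the 20 promoters of the genes that rose and in 2 of the 3 matched promoters of those that fell. It was present in 16 of the 27 matched genes of the list and in 18.5% of all promoters. The promoters of Slc16a3 (chr11:120948817-120949066, plus strand) and Hk2 (chr6:82774455-82774704, minus strand) are shown 5′ to 3′ because these genes rose and their windows hold the core, which is in capitals.
Slc16a3: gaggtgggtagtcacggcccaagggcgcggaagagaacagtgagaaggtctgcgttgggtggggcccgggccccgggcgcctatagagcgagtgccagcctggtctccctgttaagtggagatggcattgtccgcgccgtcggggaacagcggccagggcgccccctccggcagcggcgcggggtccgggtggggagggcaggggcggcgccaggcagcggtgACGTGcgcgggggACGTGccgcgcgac
Hk2: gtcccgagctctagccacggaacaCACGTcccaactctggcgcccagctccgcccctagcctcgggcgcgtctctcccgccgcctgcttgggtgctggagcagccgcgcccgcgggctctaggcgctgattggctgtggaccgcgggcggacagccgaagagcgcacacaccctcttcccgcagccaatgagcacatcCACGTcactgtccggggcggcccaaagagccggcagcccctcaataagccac
Each of the 2 windows holds the core 2 times, on the given strand in Slc16a3 and on the other strand in Hk2.

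Cell cycle genes rose in 17 of 39 cases and fell in 3, with a median of 1.09, and under endothelial scaling 30 were higher and 1 lower with a median of 1.67. Mcm2, Cdt1, Tyms and Uhrf1, genes of DNA replication and its upkeep, rose by 1.28 ± 0.17, 1.47 ± 0.17, 1.53 ± 0.19 and 2.38 ± 0.21. Mki67, the proliferation marker Ki-67, had 28.1 and 56.9 CPM at day 3 and 14.1, 14.5 and 22.9 CPM at homeostasis. Top2a, which untangles DNA in dividing cells, had 38.0 and 83.5 CPM at day 3 and 15.4, 16.4 and 22.7 CPM at homeostasis. Day 3 replicate 2 was about 2 times as high as replicate 1 in both, and Mki67 did not pass (1.30 ± 0.39, adjusted p = 0.052) and Top2a did (1.74 ± 0.40, adjusted p = 0.028). Without day 3 replicate 1 the number that rose was 30, and without day 3 replicate 2 the median was 0.46. Those that fell were Cdkn1a, which encodes the inhibitor p21 (-1.002 ± 0.14), Pcna (-0.80 ± 0.17) and Ccnd1 (-0.45 ± 0.11).

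Cytokines and chemokines rose in 18 of 24 cases and fell in 2, with a median of 3.69. The part of leukocyte RNA in these values was not tested. Il1b, the inflammatory cytokine of myeloid cells, stood at 1745 and 1743 CPM at day 3 and at 10.1, 14.8 and 11.1 CPM at homeostasis (7.18 ± 0.18, adjusted p = 1.1e-11). Cxcl2, which attracts neutrophils, rose to 1414 and 1596 CPM at day 3, against 27.8, 44.2 and 40.8 CPM at homeostasis (5.32 ± 0.20), and its relative Cxcl1 rose by 1.49 ± 0.17. Ccl2 and Ccl7, which attract monocytes, rose by 3.22 ± 0.17 and 3.83 ± 0.33, and the cytokine Lif by 4.72 ± 0.20. Those that fell were Cx3cl1 (-0.74 ± 0.11), the membrane-bound chemokine of endothelium, and Cxcl12 (-0.48 ± 0.14), and neither was called under endothelial scaling (-0.15 and 0.11). Il6, the acute-phase cytokine, overlapped at 95.9 and 167 CPM at day 3 and 132, 177 and 202 CPM at homeostasis. Of 17 genes of NF-kappaB feedback 10 rose, Tnfaip3, which encodes the inhibitor A20, by 1.79 ± 0.11 and Traf1 by 2.34 ± 0.12, and 1 fell, Bcl3 (-1.26 ± 0.11; 2 fell without homeostasis replicate 1).

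Immediate early genes, which cells switch on within minutes of a stimulus or of handling, fell in 9 of 23 cases and rose in 3 (6 without day 3 replicate 1). Their median was -0.18, but -0.60 without day 3 replicate 2 and 0.41 under endothelial scaling, where 5 were lower and 10 higher. Fosb, a subunit of the AP-1 factor, fell to 813 and 652 CPM at day 3, against 5603, 5406 and 4654 CPM at homeostasis (-2.83 ± 0.17, adjusted p = 3.0e-08). Atf3, a stress-induced factor, had 569 and 685 CPM at day 3 and 2053, 2475 and 1929.5 CPM at homeostasis (-1.78 ± 0.16). Fos stood at 2023 and 1732 CPM at day 3 and 3244, 3205 and 2745 CPM at homeostasis, so it was abundant in both groups (-0.71 ± 0.14). Egr1 overlapped at 2108 and 3246 CPM at day 3 and 2880.4, 2818 and 2134 CPM at homeostasis. Dusp1, a phosphatase of the stress kinases, rose by 0.77 ± 0.13.

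Of 27 heat shock and ER chaperone genes 20 rose and 3 fell (median 0.72), and 24 were higher under endothelial scaling (median 1.31). Sdf2l1, an ER chaperone cofactor, rose to 46.4 and 54.3 CPM at day 3, against 5.78, 6.26 and 7.48 CPM at homeostasis (2.95 ± 0.14), and Hspd1, the mitochondrial chaperonin, by 1.32 ± 0.12. The heat shock gene Hspa1b had 1086 and 356 CPM at day 3 and 117, 171 and 95.8 CPM at homeostasis, with day 3 replicate 1 about 3 times as high as replicate 2, and it did not pass (2.49 ± 0.62, adjusted p = 0.051). In the integrated stress response 10 of 19 genes rose and 2 fell, and 17 were higher under endothelial scaling. The serine synthesis genes Psat1 and Phgdh rose by 2.42 ± 0.20 and 2.19 ± 0.26, and Atf4, the central factor, fell by 0.78 ± 0.16. Of 24 Nrf2 and heme genes 16 rose and 4 fell (2 without day 3 replicate 1), and 20 were higher under endothelial scaling, with Hmox1, which breaks down heme, at 375 and 881 CPM at day 3 and 32.0, 33.2 and 37.7 CPM at homeostasis (4.19 ± 0.41), and Fth1, the ferritin heavy chain, at 2.06 ± 0.14. The cystine transporter Slc7a11, on both of these lists, rose to 113 and 191 CPM at day 3, against 0.447, 1.08 and 0.449 CPM at homeostasis (7.85 ± 0.43).

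All 13 tested protein-coding genes of the mitochondrial genome rose, with a median of 3.32 and a summed level of 187147 and 185062 CPM at day 3, against 22376, 18557 and 16668 CPM at homeostasis. Of 36 nuclear genes of the same complexes 8 rose with TMM (median 0.15), 3 rose without either of the day 3 libraries, 4 rose without homeostasis replicate 1 (1 fell) or 2, and 3 rose and 2 fell with library size alone (median -0.01). Under endothelial scaling 35 of the 36 were higher (median 0.74), and the 13 mitochondrially encoded genes had a median of 3.92. Leaving the mitochondrially encoded genes out before scaling gave 3815 genes higher and 3103 lower over all genes. Of 31 cytosolic ribosomal protein genes 3 rose and 1 fell, but 25 were higher under endothelial scaling, 9 were lower with library size alone and 11 were lower without homeostasis replicate 1. Cardiomyocyte markers, whose cells are rich in mitochondria, rose with a median of 0.96 in the same libraries. The part of cardiomyocyte RNA in the mitochondrially encoded values was not tested.

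**Figure D5:**
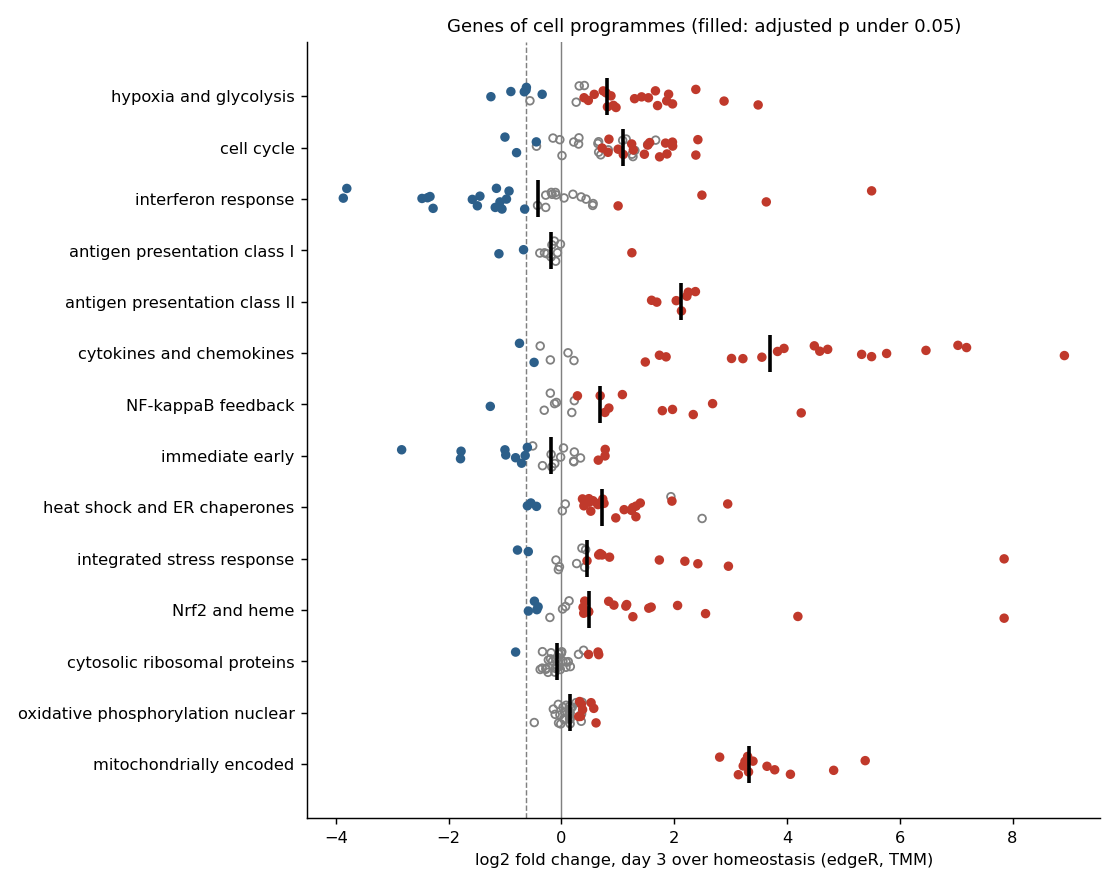
Log2 fold change of day 3 over homeostasis for each tested gene of 14 cell programmes, red for genes that rose, blue for genes that fell and open for those not called, with black bars at list medians, a solid line at 0 and a dashed line at the pan-endothelial median of -0.62. The medians of cytokines (3.69) and mitochondrially encoded genes (3.32) lie furthest to the right, and that of the interferon response (-0.42) furthest to the left.

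Among genes enriched in the endothelial fraction the largest falls were of genes outside the lists above, apart from Iigp1 and Irf1. Gkn3, a gastrokine gene known as an arterial endothelial marker in mouse, fell to 0.894 and 0.572 CPM at day 3, against 14.97, 18.6 and 20.2 CPM at homeostasis (-4.60 ± 0.26, adjusted p = 1.3e-08). Sost, which encodes the Wnt inhibitor sclerostin, fell to 1.01 and 1.11 CPM at day 3, against 29.1, 23.7 and 23.9 CPM at homeostasis (-4.58 ± 0.20, adjusted p = 1.4e-09). Pde12, a mitochondrial phosphodiesterase, had 35.0 and 40.8 CPM at day 3 and 342, 361 and 321 CPM at homeostasis (-3.17 ± 0.13), and Rasl11a, a small GTPase, had 9.15 and 6.17 CPM at day 3 and 62.6, 80.3 and 72.2 CPM at homeostasis (-3.23 ± 0.18). As the rule for naming genes required, each of the 4 was lower in both day 3 libraries than in any homeostasis library. Each stayed lower under endothelial scaling. Comp, a cartilage matrix protein, Susd5, Tmprss2, Pbld1, Syt15 and Atp2b2 fell, with log2 fold changes of -3.44, -3.58, -3.17, -3.17, -3.17 and -3.29, the call for Atp2b2 being lost without homeostasis replicate 1.

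The largest rises among the enriched genes were of inflammatory and matrix genes. Saa3, an acute-phase protein, had 415 and 317 CPM at day 3 and 0.950, 5.94 and 0.498 CPM at homeostasis (7.22 ± 1.18, adjusted p = 0.021). Homeostasis replicate 2 stood apart, the call was lost without day 3 replicate 1, day 3 replicate 2 or homeostasis replicate 1, and its near copies make its reads uncertain. Tnc, the matricellular protein tenascin C, rose to 83.0 and 173 CPM at day 3, against 5.17, 3.52 and 6.01 CPM at homeostasis (4.70 ± 0.44). Hmox1 and Inhba, given above, rose by 4.19 and 3.89, and Rab11fip1, a vesicle recycling protein, by 3.78 ± 0.23. The others were Il1b, Slfn4, Cxcl2, Plek, Tnf, Csf2rb and Ccl7, genes that leukocytes are known to express, with log2 fold changes of 7.18, 6.39, 5.32, 4.65, 4.48, 4.36 and 3.83, of which Slfn4 and Csf2rb have near copies. Over all genes the largest rises were those of Arg1, the arginase of macrophages (10.52 ± 0.18), Il1f9, Cxcl3, S100a8, Cd300lf and Cxcr2, at 10.13, 8.92, 8.84, 8.70 and 8.53. Besides Gkn3 and Sost, the largest falls over all genes were of the atrial genes Bmp10 (-6.22 ± 0.59), Sln (-5.31 ± 0.66), Myl7 (-4.70 ± 0.62) and Myl4 (-4.41 ± 0.61).

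The 2 day 3 libraries of Q150X endothelial cells were not used in any fit and are given side by side only. Over uninjured Q150X endothelial cells the median of the pan-endothelial list was -1.79 in one and -3.51 in the other, and that of the pan-leukocyte list was 4.76 and 6.11. These Q150X values are log2 ratios of CPM scaled by library size alone, without TMM. The wild-type medians from the 2 day 3 libraries together were -0.78 and 4.09 in the fit with library size alone. With TMM they were -0.62 and 4.25.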

How the data were processed

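RNA-seq counts of wild-type endothelial cells, 2 libraries at day 3 and 3 at homeostasis, were compared. The authors deposited whole-number counts per gene without normalization. Per the submitters' processing notes GRCm39, HISAT2 and kallisto were named, with no role given, and whether counting used strand is not given in the sources used here. Gene names and chromosomes came from GENCODE annotation of the earlier build GRCm38 in the reference tables, which paired 52081 of 57010 identifiers with a symbol. The unpaired ones held at most 0.169% of a library's counts. The 3961 genes of chromosomes X and Y were left out.

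Genes were kept by edgeR's filterByExpr (count minimum 10, total minimum 15), scaled by TMM and tested with edgeR's quasi-likelihood test (edgeR 4.0.16, R 4.3.3) with Benjamini-Hochberg adjustment. The Q150X day 3 libraries were not used to estimate the spread. On simulated data with the same libraries and 16127 genes, 67, 67 and 66 genes of higher counts were changed 1.5-, 2- and 4-fold. Of these 31.3%, 79.1% and 95.5% were recovered, and 15 unchanged genes were called. Far fewer genes were changed there than were called in the data (41.8%), so these shares need not hold for the data.

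Named genes were protein-coding, with a mean log2 CPM of at least 1, called and not overlapping between the groups: the 12 largest changes per direction among enriched genes, the 6 largest over all genes and up to 4 called members per list with the smallest adjusted p, plus 21 endothelial genes named whether called or not. Further list members were named to complete the counts, chosen after their values were seen. The members and lists were chosen with earlier results of these data known. Some list members that were counted are not reported here by name. No member of the adipocyte list passed the filter. Alternatives were DESeq2 1.42.0 and its size factors, limma 3.58.1 voom with quality weights, library size alone, endothelial scaling, no filter, added uninjured Q150X libraries, a replicate block, other gene exclusions and leaving out each library.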

Additional observations from a re-analysis of the deposited data

How the results depend on the processing

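Endothelial scaling changed the counts most, to 9346 genes higher and 876 lower over all genes and to 1600 higher and 513 lower among genes enriched in the endothelial fraction, and it turned the direction of Vwf (0.50), Gpihbp1 (0.18), Selp (0.56), Zbtb46 (0.31), Nos3 (0.54), Flt1 (0.17) and Fgl2 (0.022). By construction that scaling moves all values up by the fall of the pan-endothelial genes. A stricter rule for enriched genes (8 times cardiomyocytes and 4 times whole hearts) gave 207 higher and 1006 lower, from fewer genes. Leaving out each library in turn gave 2954 to 3637 genes higher and 2335 to 3068 lower over all genes, and 426 to 513 higher and 1313 to 1560 lower among enriched genes. The replicate block gave 3453 higher and 2857 lower over all genes, and 516 higher and 1518 lower among enriched genes. With the block 26 cell cycle genes were higher, against 17 without it. The groups share only a replicate number: same-numbered libraries deviated together by r = 0.156 for number 1 and 0.0318 for number 2, with 2 pairs. Of 209 genes named by the rule 202 were called, and 177 of the 209 kept direction and side of the threshold under all alternatives run. Simulated data had the depth, number and spread of these libraries but far fewer changed genes than were called in the data. There 31.3% of genes changed 1.5-fold were recovered. Whether depth, number or spread limits this was not tested.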
